A study of Mus musculus with 20 samples.

Results

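Pieces of 20 breast tumors were ordered by how much adipocyte RNA they carried, and the 6 highest (adipocyte-rich) were compared with the 6 lowest (adipocyte-poor), so that 12 of the 20 tumors of the study entered the comparison and 8 lay between them. The order came from a score, the mean z-score over the 20 tumors of log2(CPM + 1) of Adipoq, Plin1, Cidec and Fabp4, where CPM is a gene's read count scaled to the same total in every tumor. Every tumor arose spontaneously in its own female [BALB/c-neuT x FVB/J] F1 mouse, which carries an activated rat neu (HER2) transgene that drives mammary tumors. No group had another genotype, treatment or labelled age, no normal fat or mammary gland was compared here, and RNA came from small frozen pieces, so that a piece can hold whatever tissue lay at its site. Tumors are called by the names they carry (Hi 9, Lo 4). What Lo, Hi and the number stand for is not given in the sources used here.

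Mammary epithelium grows inside a fat pad, and mouse mammary tumors expand among adipocytes, which store triglyceride in a single large lipid droplet. Perilipins coat this droplet, CIDE proteins let droplets fuse, lipases release fatty acids from it, and the transcription factors PPARG and C/EBP alpha switch on most of the genes that mature fat cells use. Adipocytes also secrete adipokines such as adiponectin, leptin and resistin. In RNA from a whole piece of tissue, more fat cells and more RNA per fat cell cannot be told apart.

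Library depth and composition overlapped between the groups. Total counts ran from 38765682 to 65465755 per tumor over the series. A ribosomal RNA locus annotated as Yam1 and AY036118 took between 6.29% and 27.7% of the counts and was left out of all totals used for CPM. It took 18.8% ± 5.43 (SD, n = 6) in adipocyte-rich and 14.2% ± 5.93 (SD, n = 6) in adipocyte-poor tumors, a difference of 4.62 percentage points (two-sided exact permutation p = 0.193, where 0.00216 is the smallest p that 6 against 6 allows). Neither the total count (p = 0.807) nor the dosage of Chr4 genes (p = 0.721), by the same exact permutation test, passed 0.05. Dosage is the median log2 level of a chromosome's genes against all autosomal genes. Rich minus poor, it was -0.0236 for Chr4 (SD over the 20 tumors 0.135). The largest differences were -0.0858 for Chr2 (SD 0.0859) and 0.0464 for Chr12 (SD 0.0394), and chromosomes other than Chr4 were not tested. The rich group held 3 Lo and 3 Hi tumors and the poor group 2 Lo and 4 Hi tumors (two-sided Fisher's exact test p = 1). Some pieces stood apart in genes of other tissues. The summed CPM of 10 skeletal muscle genes was 1228 in Hi 6, 677 in Lo 4, 223.5 in Hi 9 and 93.2 in Lo 6 among rich tumors, and 120.1 in Lo 2 and 92.5 in Hi 3 among poor tumors, against 5.79 to 10.97 in the other 6 tumors of the groups. Hi 3 also held 383.9 CPM of 6 skin genes, against 5.17 to 28.3 in the other 11.

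The 4 genes of the score set the order, so their levels describe the groups and are not tested. Adiponectin (Adipoq), the adipocyte hormone, lay at 3.70 to 5.43 CPM with a median of 4.8 in rich tumors and at 0.395 to 1.13 CPM with a median of 0.626 in poor tumors. Perilipin 1 (Plin1), the coat protein of the adipocyte lipid droplet, lay at 0.969 to 2.58 CPM (median 1.88) in rich tumors, against 0 to 0.148 CPM (median 0.0665) in poor tumors. Hi 4 and Lo 2 had no Plin1 count at all, which at their depths allows up to 3 counts, and the deepest poor library held 4. Cidec, which enlarges lipid droplets, reached 3.78 to 8.89 CPM (median 5.13) and 0.0686 to 0.652 CPM (median 0.361) in the same order. Fabp4, the fatty acid carrier of fat cells that endothelium and macrophages also make, reached 23.8 to 50.01 CPM (median 39.2) and 5.53 to 14.9 CPM (median 10.7). None of these genes overlapped between the groups. The ratio of the group means was 26.7 for Plin1, 15.2 for Cidec, 7.05 for Adipoq and 3.70 for Fabp4. Even the richest piece, Hi 9, held 293 reads of Adipoq, so the label adipocyte-rich is relative to the other tumors of the series.

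**Figure D1:**
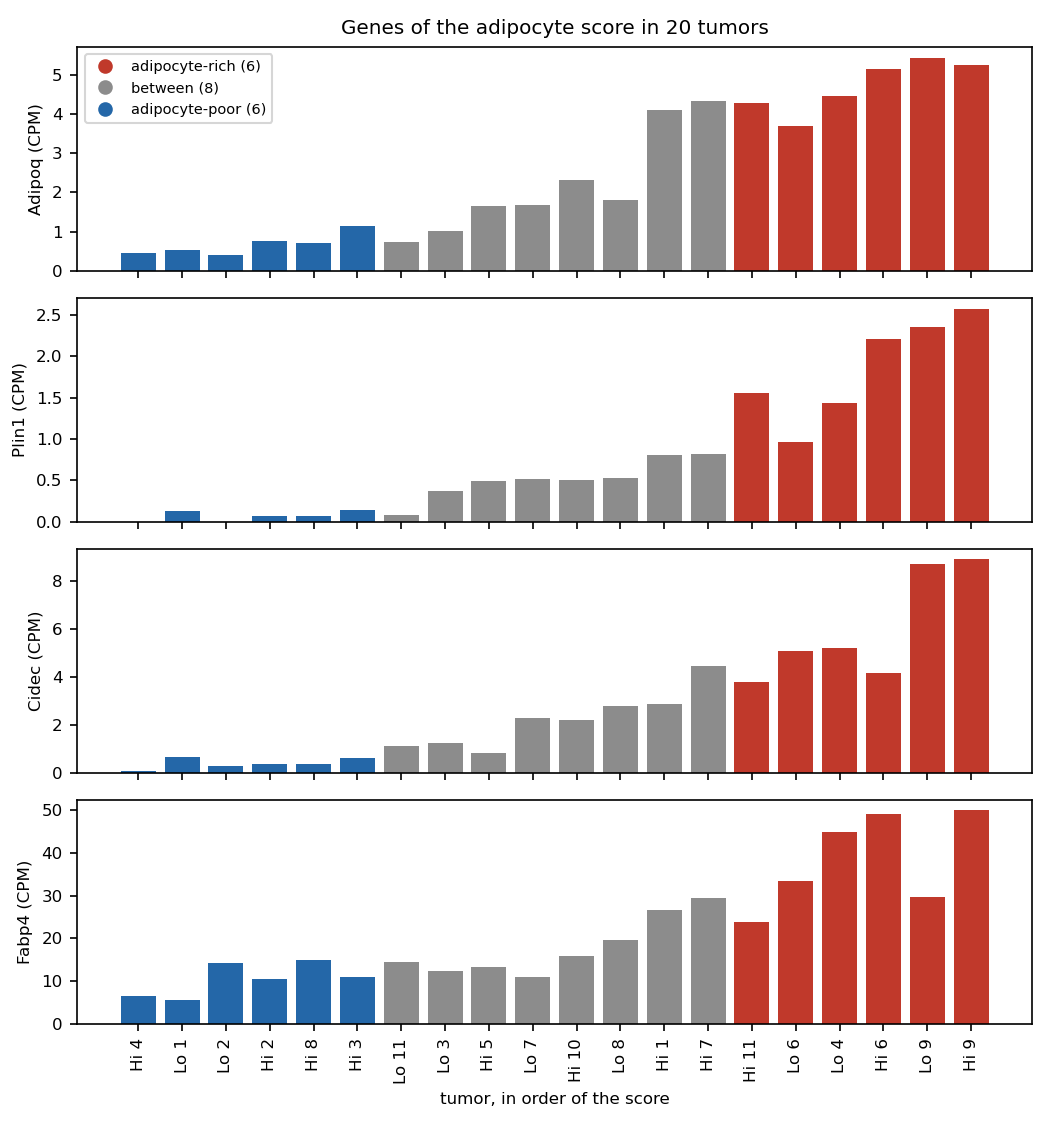
CPM (y axes, from 0) of the 4 genes of the adipocyte score in each of the 20 tumors (x axis, in order of the score), 1 bar per tumor. The 6 adipocyte-rich tumors hold 3.70 to 5.43 CPM of Adipoq and the 6 adipocyte-poor tumors 0.395 to 1.13, and the 8 tumors between them run from 0.741 in Lo 11, within the poor range, to 4.33 in Hi 7, within the rich range.

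Scores ran from -1.40 in Hi 4 to -0.798 in Hi 3 in the poor group and from 0.788 in Hi 11 to 1.63 in Hi 9 in the rich group. Lo 11, the tumor just outside the poor group, had -0.715, and Hi 7, just outside the rich group, had 0.723. Hi 7 exceeded Hi 11 in Adipoq (4.33 against 4.28 CPM), Cidec (4.47 against 3.78) and Fabp4 (29.5 against 23.8) and fell behind it in Plin1 (0.817 against 1.56), so its place depended on the low counts of Plin1. The widest gap between neighbors lay among the tumors between the groups, from 0.0341 in Lo 8 to 0.532 in Hi 1.

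Few of the other genes followed this grouping. In edgeR's quasi-likelihood test with Benjamini-Hochberg adjustment, 16 of 18901 genes passed an adjusted p under 0.05, which is 0.0847%, and 15 of them (0.0794% of all genes tested) were higher and 1 (0.00529%) was lower in adipocyte-rich tumors. Since the tumors were grouped by their own expression, such a p states how closely a gene follows the grouping in these 12 tumors. All 15 higher genes had groups that did not overlap in CPM, as did 0.323% of all genes tested in that direction. In the other direction 0.175% of genes did not overlap. The median log2 fold change of all genes was -0.00389.

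The adipocyte genes were read in 9 lists of 112 genes by role, besides the 4 of the score. Of these, 103 had enough reads to be tested. They share their cells with the score genes, so folds and counts are given for them without an edgeR p for single genes. The 7 that passed the threshold were all higher in rich tumors (6.80% of the 103, against 0.0794% of all genes). No member was called lower, and the median log2 fold change over the 103 was 0.12. The tumors were ordered by adipocyte genes, so this share describes the grouping and is no separate support for it. Pck1, Ces1d and Cyp2e1, near 0 in poor tumors, passed the filter on low counts through the rich tumors alone. The 7 were Pck1, Cfd, Plin4, Sncg, Retn, Car3 and Ces1d. The other members did not pass the test.

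**Figure D2:**
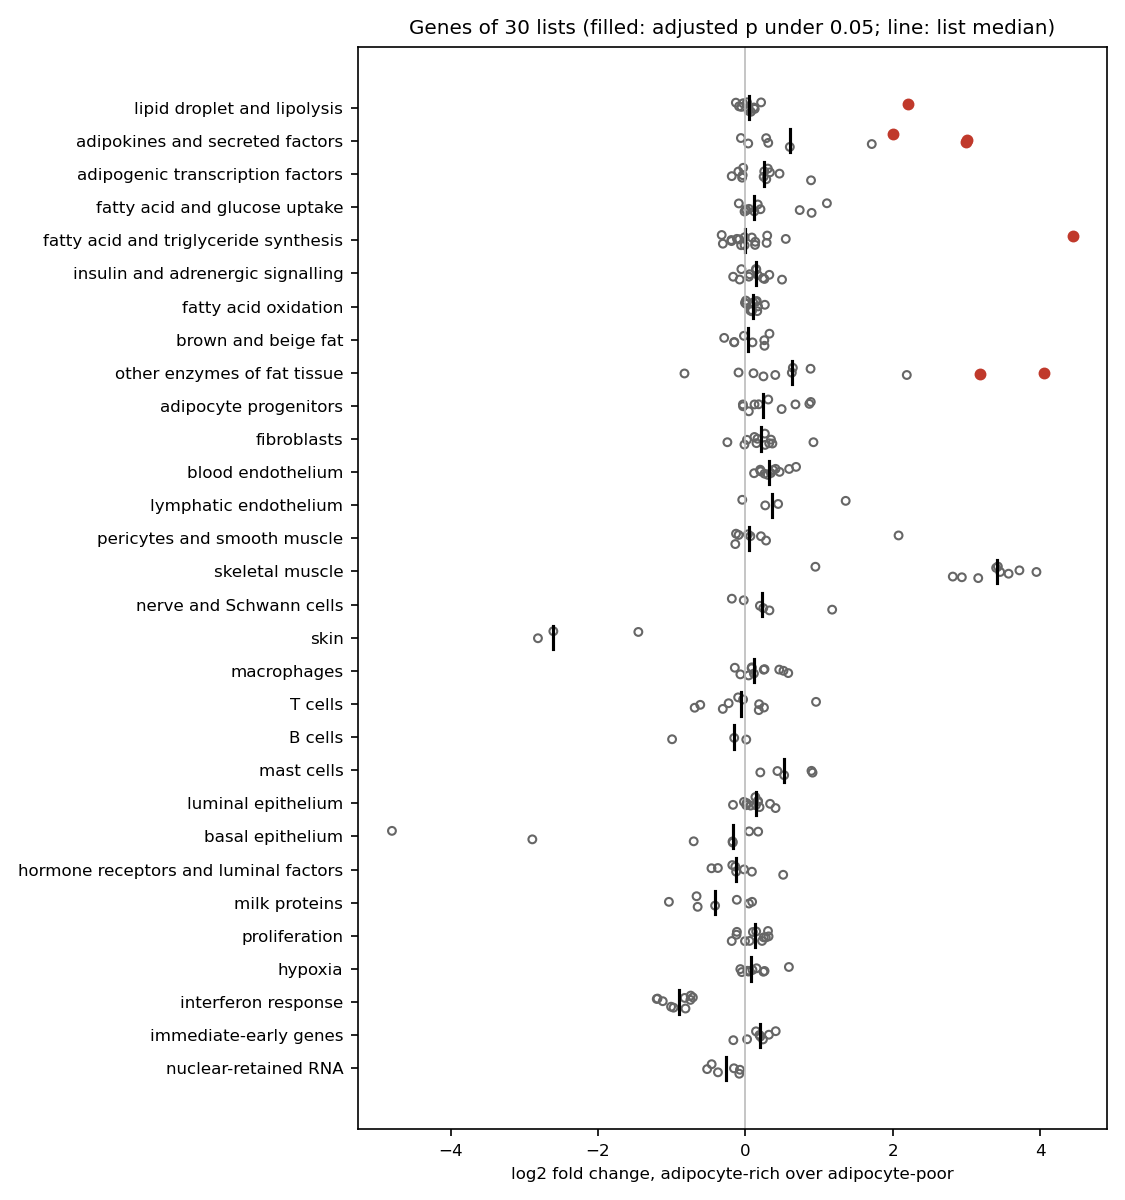
Log2 fold change between adipocyte-rich and adipocyte-poor tumors (x axis) of the tested genes of 30 lists (y axis), 1 point per gene, filled where the adjusted p is under 0.05, with a bar at each list's median. The 7 filled points belong to adipocyte lists, the skeletal muscle list has a median of 3.42 with no filled point, and the interferon list lies wholly below 0.

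Pck1, the cytosolic phosphoenolpyruvate carboxykinase that fat cells use to make the glycerol backbone of triglyceride, showed the largest fold change of the adipocyte lists. It lay at 2.31 to 4.56 CPM (median 3.66) in adipocyte-rich tumors and at 0.0658 to 0.222 CPM (median 0.170) in adipocyte-poor tumors. The lowest rich tumor was thus 10.4 times the highest poor tumor, and the log2 fold change was 4.45 (standard error 0.253). Tumors between the groups held 0.397 to 2.13 CPM.

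None of the other 15 tested genes of fatty acid and triglyceride synthesis passed the test. Fatty acid synthase (Fasn) lay at 181.5 to 257.2 CPM (median 227.3) in rich and at 209.1 to 367.1 CPM (median 285.6) in poor tumors, with overlapping groups and a log2 fold change of -0.32 (standard error 0.125). Acaca, the carboxylase that feeds Fasn, had -0.30 (standard error 0.0983), the desaturase Scd1 0.13, the citrate lyase Acly -0.08 and the acyltransferase Dgat2, which completes triglyceride, 0.55 (standard error 0.148). The list's median was -0.01. Summed over its 16 genes, the list held 2739 to 3631 CPM in rich and 2837 to 3711 CPM in poor tumors.

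With 3 calls among 9 tested genes, secreted factors held more than any other adipocyte list. Complement factor D or adipsin (Cfd), a protease abundant in fat, lay at 12.3 to 19.4 CPM (median 18.2) in rich and at 0.915 to 3.16 CPM (median 2.27) in poor tumors, a log2 fold change of 3.01 (standard error 0.235). Resistin (Retn), a hormone of mouse adipocytes, lay at 0.782 to 1.53 CPM (median 0.997) and at 0 to 0.259 CPM (median 0.123), with a log2 fold change of 3.0 (standard error 0.440). Sncg, gamma-synuclein, a protein of neurons and adipocytes, had 1.48 to 3.2 against 0.412 to 0.992 CPM and a log2 fold change of 2.0 (standard error 0.265). In each of the 3 genes every rich tumor exceeded every poor tumor. Leptin (Lep) was too low to be tested. It lay at 0.126 to 1.15 CPM (median 0.784) in rich tumors and at 0 to 0.135 CPM (median 0.0400) in poor tumors, and Lo 4, a rich tumor, fell within the poor range. The retinol carrier Rbp4, whose groups overlapped, had a fold of 1.72 on the log2 scale (standard error 0.464) and did not pass, and the median of the 9 tested members of the list was 0.60.

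**Figure D3:**
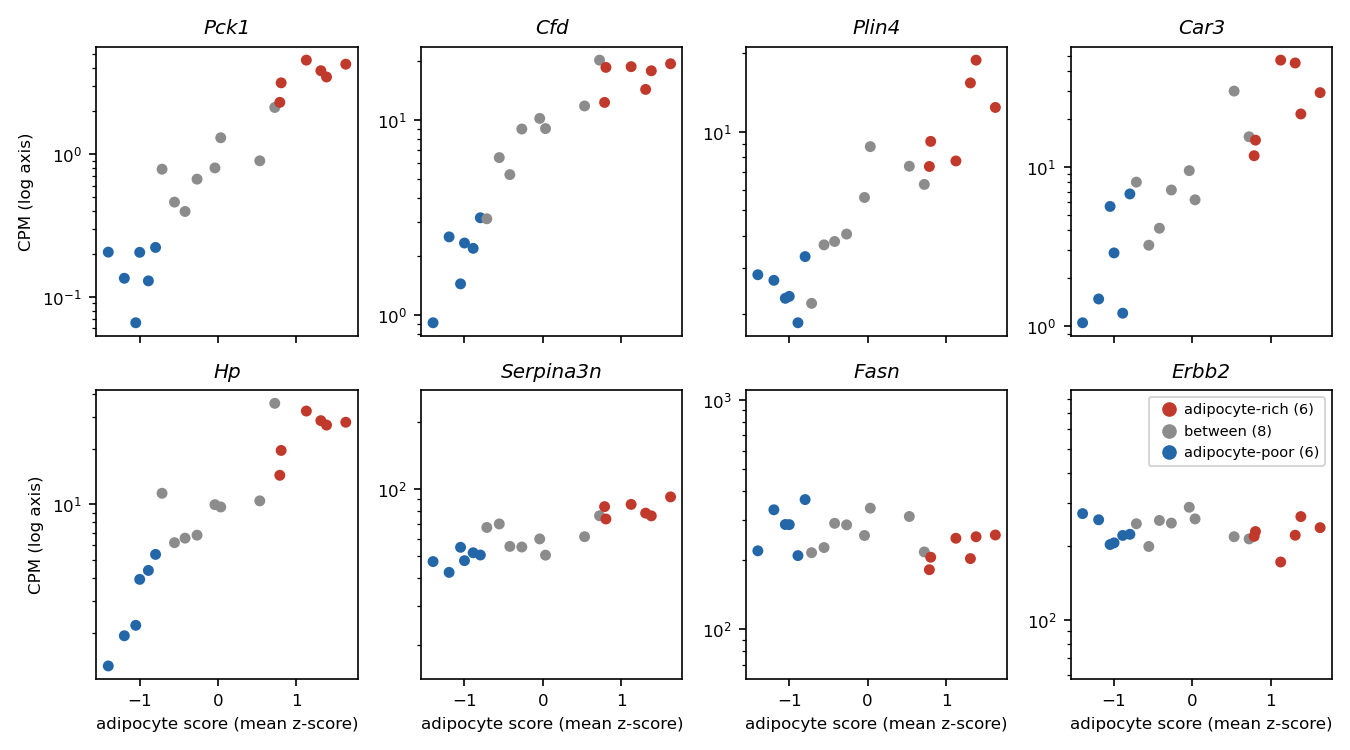
CPM on a log axis (y) against the adipocyte score (x) of 8 genes, 1 point per tumor, in red for adipocyte-rich, gray for the tumors between and blue for adipocyte-poor tumors. Pck1, Cfd, Plin4, Car3 and Hp separate the groups, Serpina3n does so over a narrow range, and Fasn and Erbb2 overlap.

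Among lipid droplet and lipolysis genes, 1 of 12 passed. Plin4, a perilipin that coats nascent droplets in fat cells, lay at 7.38 to 18.9 CPM (median 10.8) in rich and at 1.85 to 3.33 CPM (median 2.52) in poor tumors, a log2 fold change of 2.21 (standard error 0.217). The other 11 members did not pass. Plin2, the droplet coat of most cells, stood at 0.02 on the log2 scale (standard error 0.183), the triglyceride lipase Pnpla2 0.13 and Lipe, the hormone-sensitive lipase of adipocytes, 0.21. The median log2 fold change of the list was 0.04.

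Of 12 adipogenic transcription factors, none passed edgeR's test (1 at an unadjusted p under 0.05) or DESeq2. Pparg, the receptor that drives adipocyte differentiation, had the largest fold of the list, a log2 value of 0.89 (standard error 0.273), with 0.791 to 1.56 CPM in rich and 0.263 to 1.15 CPM in poor tumors, so the groups overlapped. Cebpa stood at 0.26 (standard error 0.182) and the lipogenic factor Srebf1, at 717.6 to 889.2 CPM in rich tumors, at -0.03 (standard error 0.0920). The list's median was 0.25.

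Genes of fatty acid and glucose uptake had no call among 11 tested, though some separated the groups. Cd36, a fatty acid transporter also made by endothelium, muscle and macrophages, lay at 25.1 to 51.9 CPM (median 29.9) in rich and at 10.3 to 24.4 CPM (median 18.5) in poor tumors, a log2 fold change of 1.11 (standard error 0.258). Lipoprotein lipase (Lpl), which frees fatty acids from lipoproteins, had 0.90 (standard error 0.203) with overlapping groups. The insulin-responsive glucose transporter of fat and muscle, Slc2a4, had 0.74 (standard error 0.209), and its highest level, 7.05 CPM, was in Hi 6, the tumor with the most muscle RNA, whose part in the result was not tested. Cd36 and Lpl passed an adjusted p of 0.05 in DESeq2. Fabp5, the fatty acid carrier of epithelium, had a log2 fold change of 0.01.

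Car3, a carbonic anhydrase very abundant in fat and also made by skeletal muscle, lay at 11.8 to 47.0 CPM (median 25.4) in rich and at 1.05 to 6.78 CPM (median 2.19) in poor tumors, a log2 fold change of 3.18 (standard error 0.503). Its highest levels, 47.0 and 45.1 CPM, were in Lo 4 and Hi 6, which also held the most muscle RNA. Hi 11 and Lo 9, rich tumors whose 10 muscle genes summed to 7.63 and 7.67 CPM, had 11.8 and 21.6 CPM of Car3, and the highest poor tumor had 6.78 CPM. The part of muscle RNA in the Car3 difference was not tested further. Ces1d, a carboxylesterase with lipase activity in fat, lay at 0.313 to 1.41 CPM in rich and at 0 to 0.151 CPM in poor tumors (log2 fold change 4.05, standard error 0.700). Without Hi 8, the poor tumor with 0.151 CPM, the Ces1d log2 fold change was 5.36, and over all group fits it ran from 3.10 to 5.36. Cyp2e1, a cytochrome P450 of liver and fat, had 2.19 (standard error 0.444) with groups that did not overlap, and passed in DESeq2 but not in edgeR. It entered these tests through the rich tumors alone, so its separation describes the grouping only. The alcohol dehydrogenase Adh1 had -0.83 (standard error 0.484).

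The lists of fatty acid oxidation, of insulin and adrenergic signalling and of brown and beige fat held no called gene. The first had a median log2 fold change of 0.0988, where all 103 tested adipocyte genes had 0.12. None of 12 fatty acid oxidation genes passed, and their log2 fold changes lay between -0.00481 and 0.26, with 11 above 0. None of 12 tested insulin and adrenergic signalling genes passed, with a median of 0.15. The adrenergic receptor of fat cells, Adrb3, was too low to be tested, at 0.114 to 0.680 CPM in rich and 0 to 0.197 CPM in poor tumors. Of the 8 tested genes of brown and beige fat none passed, with a median of 0.04. At an unadjusted p under 0.05 these 3 lists held 3, 2 and 0 genes, against 9.38% of all genes tested, and DESeq2 called none. Ucp1, the uncoupling protein that defines brown fat, had 2.40 CPM in Lo 4 and at most 0.174 CPM in the other 19 tumors.

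Most of the calls were of genes of low level. Of the 47 tested adipocyte genes with a mean over 20 tumors under 5 CPM per kilobase of listed length, 6 were called, and their log2 fold changes ran from -0.83 to 4.45 with a median of 0.29. Of the 56 with at least 5 CPM per kilobase, 1 (Cfd) was called, and the range was -0.32 to 3.01 with a median of 0.06. This upper class holds genes such as Scd1, Srebf1, Fasn and Plin2, whose levels overlapped between the groups.

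**Figure D4:**
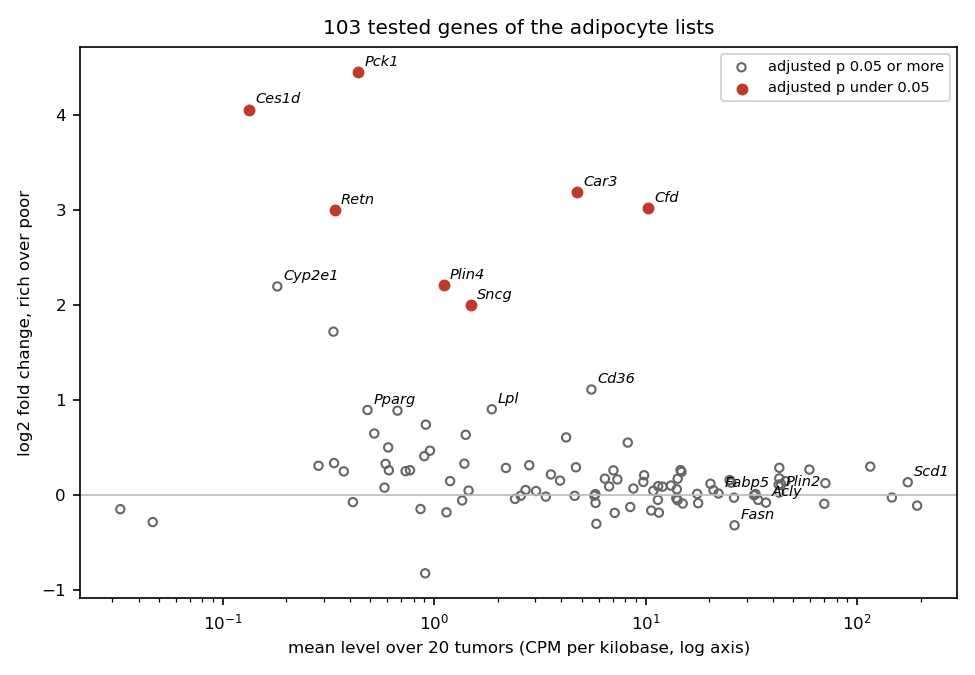
Log2 fold change, adipocyte-rich over adipocyte-poor (y axis), against the mean level over 20 tumors in CPM per kilobase on a log axis (x) for the 103 tested genes of the adipocyte lists, filled where the adjusted p is under 0.05. The 7 filled points have log2 fold changes of 2.0 to 4.45, and 6 of them lie under 5 CPM per kilobase.

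Promoters are shown for Adipoq, of the score, and for Pck1 and Cfd, the called genes with the smallest adjusted p, to let the start regions of genes that moved together be read side by side. RefSeq sequences of the GRCm38.p6 assembly, 250 bases before and 50 after the start, were found for 10 of the 19 genes of the score or called higher. In capitals is each match of TTNCNNAA, a relaxed form of the site that C/EBP factors bind, on either strand. All 3 genes lie on the plus strand, Adipoq at chr16:23146286-23146585, Pck1 at chr2:173152823-173153122 and Cfd at chr10:79890603-79890902.
Adipoq: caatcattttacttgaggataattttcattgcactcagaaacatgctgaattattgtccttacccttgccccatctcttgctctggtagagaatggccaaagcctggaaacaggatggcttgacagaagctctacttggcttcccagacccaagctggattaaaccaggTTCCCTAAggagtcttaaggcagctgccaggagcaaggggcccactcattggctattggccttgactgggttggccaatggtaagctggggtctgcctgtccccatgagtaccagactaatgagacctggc
Pck1: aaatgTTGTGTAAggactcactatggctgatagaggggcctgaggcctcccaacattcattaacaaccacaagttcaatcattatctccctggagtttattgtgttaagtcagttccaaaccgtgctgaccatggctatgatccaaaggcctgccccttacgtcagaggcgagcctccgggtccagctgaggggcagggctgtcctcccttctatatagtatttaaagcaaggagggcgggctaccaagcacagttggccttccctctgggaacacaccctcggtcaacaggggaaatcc
Cfd: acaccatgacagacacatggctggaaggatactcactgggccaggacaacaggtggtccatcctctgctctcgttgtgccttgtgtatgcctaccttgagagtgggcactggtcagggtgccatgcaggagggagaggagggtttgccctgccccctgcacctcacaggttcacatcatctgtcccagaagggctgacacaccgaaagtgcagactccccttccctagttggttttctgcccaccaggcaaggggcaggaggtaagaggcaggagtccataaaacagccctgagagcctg
Of the 11 promoters of these 10 genes (Cidec has a pair), 6 held TTNCNNAA, those of Adipoq, Cidec, Pck1, Plin1 and Serpina3n, as did 40.7% of all 32851 promoters of the table. None of the 11 held the palindrome TTGCGCAA (0.183% of all promoters), the nuclear receptor half-site AGGTCA (16.3%), a pair of these 1 base apart, AGGTCANAGGTCA (0.0396%), or TATAAA (13.6%). Every motif was searched on both strands, and AGGTCANAGGTCA contains AGGTCA. A match is a description of the letters, and its absence says only that they are not in this window.

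Outside the adipocyte lists, 9 genes passed, 8 higher and 1 lower in adipocyte-rich tumors. Haptoglobin (Hp, chr8:109575130-109579172, mm10), a hemoglobin-binding protein of liver and fat, lay at 14.4 to 32.1 CPM (median 27.4) in rich and at 1.33 to 5.35 CPM (median 3.06) in poor tumors. Every rich tumor was at least 2.69 times the highest poor tumor, and the log2 fold change was 2.97 (standard error 0.310, edgeR adjusted p = 5.364e-04). Serpina3n, a secreted serine protease inhibitor of the acute phase, lay at 73.4 to 92.2 CPM (median 80.7) and at 42.4 to 54.9 CPM (median 49.2). Its log2 fold change was small, 0.73 (standard error 0.0876), and its spread within groups was smaller still (edgeR adjusted p = 0.00192). Tusc5, now named Trarg1, a regulator of glucose transporter trafficking in fat cells, had 3.39 ± 0.841 against 1.24 ± 0.275 CPM (SD, n = 6 each), a log2 fold change of 1.44 (edgeR adjusted p = 0.00979). Fat cells make both Hp and Tusc5, so these genes can share their cells with the score genes. Their p has the same limit as for the adipocyte lists and describes the grouping only. St6galnac5, a sialyltransferase of gangliosides, had 0.926 ± 0.0960 against 0.213 ± 0.0642 CPM (SD, n = 6 each) and a log2 fold change of 2.13 (edgeR adjusted p = 0.00162). It lies under the level set for naming genes and was picked after its values were seen.

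Sox14, a transcription factor gene known from the developing nervous system, had the largest fold change of all called genes. It lay at 1.80 to 12.6 CPM (median 5.39) in rich and at 0 to 0.821 CPM (median 0.0559) in poor tumors, a log2 fold change of 4.82 (standard error 0.775, edgeR adjusted p = 0.0251). The size of the Sox14 log2 fold change rests on Hi 2, the poor tumor with 0.821 CPM, without which it was 6.42, and over all group fits it ran from 3.81 to 6.42. In the tumors between, it lay at 8.72 to 10.02 CPM in Hi 5, Hi 10 and Hi 7, at 6.81 in Lo 7 and at 0.0899 to 0.845 CPM in the other 4. The noncoding genes RP24-116C1.6 (chr9:98767653-98767816) and RP24-116C1.5 (chr9:98767930-98768321) had log2 fold changes of 2.06 (edgeR adjusted p = 0.00644) and 1.46 (edgeR adjusted p = 0.00979). They are neighbors on opposite strands within the span of a longer noncoding gene, E330023G01Rik, so that without a stated strand setting their reads cannot be assigned with certainty. Gm29084, annotated as an antisense RNA, had a log2 fold change of 1.02 (edgeR adjusted p = 0.0325). For these 3 noncoding genes the highest tumor of the series was Hi 7, outside both groups, at 32.7, 153.9 and 138.6 CPM.

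The 1 lower gene was Hmgcll1, a lyase related to the enzyme that makes ketone bodies. It lay at 0.910 to 2.03 CPM (median 1.58) in rich and at 1.61 to 12.8 CPM (median 7.38) in poor tumors, a log2 fold change of -2.32 (standard error 0.372, edgeR adjusted p = 0.0251). Here the groups overlapped, because Lo 2, a poor tumor, had 1.61 CPM. In the 8 tumors between, 7 lay between 0.373 and 2.11 CPM, and Lo 7 had 5.15 CPM.

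The 8 tumors between the groups took no part in the calls, though their values entered the z-scores and so the order of the tumors. They were used to describe how the 16 called genes follow the score among them. Adipocyte genes share their cells with the score genes. A p here therefore states how closely a gene follows the score in these 8 tumors and is no separate support for the calls. Log2(CPM + 1) of each gene was correlated with the score over these 8 tumors (two-sided exact permutation p, Benjamini-Hochberg adjusted over the 16 genes; this check was added after the calls were seen). The sign of Pearson's r matched the fold change in 16 of 16 genes. Without Hi 7 and Hi 1, the 2 tumors farthest from the median score, the sign turned in Serpina3n (r = -0.761), Hmgcll1 (0.0839), RP24-116C1.6 (-0.0586) and RP24-116C1.5 (-0.0728). By r, 3 genes passed an adjusted p of 0.05. Cfd had r = 0.923 (exact permutation p = 5.456e-04, adjusted p = 0.00873) and Spearman's rho = 0.952 (exact permutation p = 0.00114, adjusted p = 0.0183), and without Hi 7 and Hi 1 r was 0.885. Sncg had r = 0.876 (exact permutation p = 0.00838, adjusted p = 0.0447) and rho = 0.810 (adjusted p = 0.0697), but r fell to 0.350 without those 2 tumors and rests on them. Ces1d had r = 0.848 (exact permutation p = 0.00685, adjusted p = 0.0447) and rho = 0.810 (adjusted p = 0.0697), with r = 0.623 without them.

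Plin4 passed by rank, with rho = 0.905 (exact permutation p = 0.00456, adjusted p = 0.0365) and r = 0.804 (adjusted p = 0.0595), and r was 0.937 without the 2 tumors. Pck1 had r = 0.771 (exact permutation p = 0.0223, adjusted p = 0.0595) and rho = 0.810 (adjusted p = 0.0697), with r = 0.610 without the 2. Hp had r = 0.702 (exact permutation p = 0.0371, adjusted p = 0.0848) and rho = 0.476 (adjusted p = 0.389), and without the 2 tumors r was 0.149. The relation of Hp with the score between the groups thus rests on these 2 tumors. Serpina3n had r = 0.169 (adjusted p = 0.778), Sox14 0.110 (adjusted p = 0.821) and Hmgcll1 -0.0528 (adjusted p = 0.906), all by exact permutation, so that for these 3 genes, called between the ends of the order, no relation was detectable in its middle with 8 tumors.

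Lists of other cells and tissues held no called gene. In 21 lists of 187 genes, 174 were tested, and 0 passed edgeR's adjusted p of 0.05. At an unadjusted p under 0.05, 36 of the 174 passed, against 9.38% of all genes tested, and DESeq2 called 1, Krt14. Skeletal muscle genes had the highest median log2 fold change of the 30 lists, 3.42, and 9 of 10 had an unadjusted p under 0.05. The muscle sum ranged from 7.63 to 1228 CPM (median 158.4) in rich and from 5.79 to 120.1 CPM (median 10.2) in poor tumors, so the groups overlapped. Acta1, the actin of skeletal muscle, lay at 0.622 to 296.9 CPM in rich tumors and at 0.410 to 32.2 CPM in poor tumors. Without the 5 tumors of the groups that held over 100 CPM of the muscle or skin genes (Hi 6, Lo 4, Hi 9, Lo 2 and Hi 3), 7 genes were higher and 3 lower. Pck1, Cfd, Plin4, Hp and Car3 were among the 7, with log2 fold changes of 4.13, 3.03, 2.28, 2.80 and 3.28. This fit kept Hi 11, Lo 6 and Lo 9 as rich and Hi 4, Lo 1, Hi 2 and Hi 8 as poor tumors. Lo 6 held 93.2 CPM of the muscle genes, against at most 10.97 CPM in the poor tumors kept. Muscle RNA was thus not fully removed from the comparison.

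**Figure D5:**
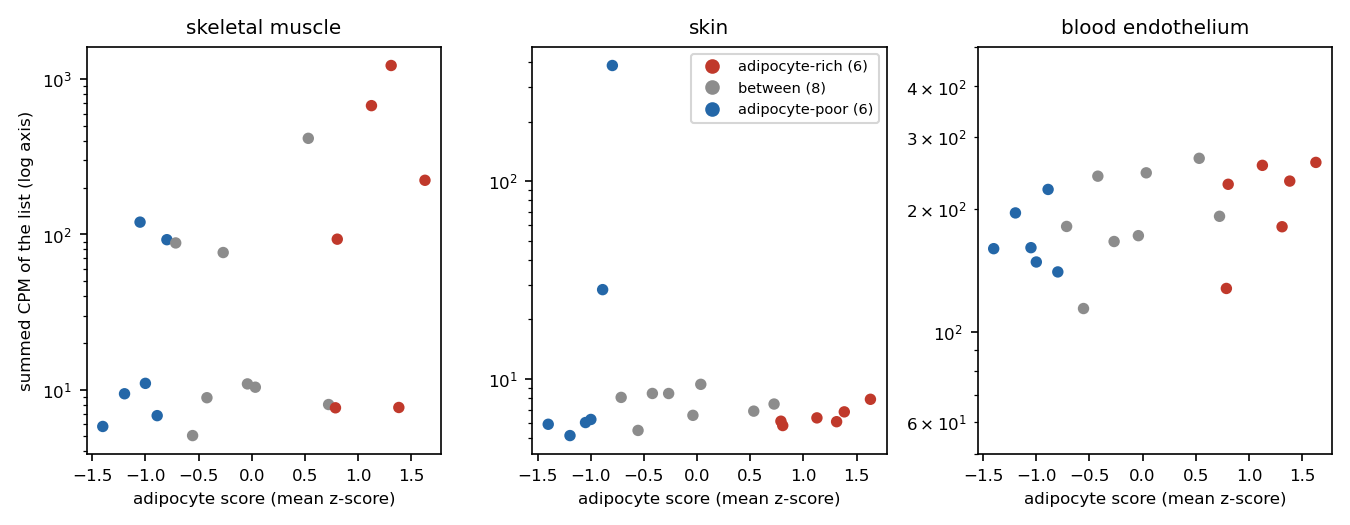
Summed CPM on a log axis (y) of the skeletal muscle, skin and blood endothelium lists against the adipocyte score (x), 1 point per tumor, colored by group. Muscle genes are high in 4 of 6 adipocyte-rich tumors and in 2 adipocyte-poor tumors, skin genes stand out in Hi 3 at 383.9 CPM, and blood endothelium varies over a narrow range with overlapping groups.

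Vessel genes did not pass the test. All 12 blood endothelium genes had log2 fold changes above 0, from 0.12 for Cldn5 to 0.69 for Vwf, with a median of 0.33, and 5 had an unadjusted p under 0.05. Their sum lay at 127.6 to 260.3 CPM (median 232.1) in rich and at 140.1 to 223.4 CPM (median 160.3) in poor tumors, and the lowest tumor of the groups was Hi 11, a rich one. Fibroblast genes had a median of 0.21 and adipocyte progenitor genes, which mark the cells that give rise to new fat cells, a median of 0.25, with 0 called in either list and 0 and 2 at an unadjusted p under 0.05. Pericyte and smooth muscle genes had a median of 0.05, with Des at 2.08, a gene that skeletal muscle also expresses. Lymphatic genes had a median of 0.36, and Lyve1, which resident macrophages share, had 1.36 (standard error 0.718). At an unadjusted p under 0.05 the pericyte and smooth muscle list held 1 gene and the lymphatic list 0.

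Macrophage genes had a median of 0.12 over 11 tested. None passed edgeR's adjusted p of 0.05, and 3 were higher at an unadjusted p under 0.05, against 9.38% of all genes tested. Among genes that mark tissue-resident macrophages, Mrc1 was at 0.58 (standard error 0.237), Folr2 at 0.52 (standard error 0.222) and Cd163 at 0.46 (standard error 0.259), with edgeR adjusted p of 0.475, 0.488 and 0.611, while Mertk was at -0.07 (standard error 0.159) and Timd4 was too low to be tested (means of 0.241 CPM in rich and 0.226 CPM in poor tumors). T cell genes had a median of -0.06, B cell genes of -0.15 and mast cell genes of 0.53, and nerve and Schwann cell genes of 0.22. At an unadjusted p under 0.05, 0 of 10 T cell, 0 of 3 B cell, 1 of 5 mast cell and 2 of 6 nerve genes passed. Skin genes had a median of -2.61, and all 3 tested were lower at an unadjusted p under 0.05. Krt10 was at 162.1 CPM in Hi 3 against 3.70 to 14.5 CPM in the other 11 tumors of the groups.

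No gene of the epithelial lists, nor Erbb2, passed edgeR's adjusted p of 0.05. Which cells express the called genes outside the lists was not tested. Erbb2, the mouse gene of the HER2 driver, had 224.5 ± 30.1 CPM in rich and 230.8 ± 27.7 CPM in poor tumors (SD, n = 6 each), a log2 fold change of -0.03 (standard error 0.0910, edgeR adjusted p = 0.938). Luminal epithelial genes had a median of 0.14 over 12, and their sum lay at 5149 to 6236 CPM in rich and at 4457 to 5370 CPM in poor tumors. The groups overlapped in this sum, with medians of 5350 CPM in rich and 5150 CPM in poor tumors. At an unadjusted p under 0.05, 3 of the 12 were higher (Epcam, Cldn3 and Cldn4, with log2 fold changes of 0.19, 0.34 and 0.41). Basal genes had a median of -0.17, and 3 of 7 (Krt5, Krt14 and Krt17) were lower at an unadjusted p under 0.05. Krt14, a basal keratin that skin also makes, had the largest negative fold of any list gene, -4.80 (standard error 1.15, edgeR adjusted p = 0.241), with 0.114 to 0.534 CPM in rich and 0.103 to 27.0 CPM in poor tumors, so the groups overlapped. Its highest levels were in Hi 3 (27.0 CPM) and Hi 8 (7.33 CPM), and the other poor tumors had at most 1.48 CPM. Krt5 was also highest in Hi 3 (33.85 CPM) and Hi 8 (7.89 CPM). These 2 tumors held the most skin RNA of the groups, and its part in these folds was not tested. Hormone receptor and luminal factor genes had a median of -0.13 and milk protein genes of -0.41, with 0 called in either and 1 and 0 at an unadjusted p under 0.05.

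No gene of the cell state lists passed the test. Proliferation genes had a median log2 fold change of 0.13, hypoxia genes of 0.08 and immediate-early genes of 0.20, with 0 called and 0 at an unadjusted p under 0.05 in each. All 10 interferon response genes had values below 0, with Mx1 at -1.20 and a median of -0.90 and 3 at an unadjusted p under 0.05. Their sum ran from 152.9 to 526.3 CPM (median 182.6) in rich and from 167.2 to 841.6 CPM (median 314.3) in poor tumors. Lo 1 and Lo 2, both poor, held 825.3 and 841.6 CPM. The 6 nuclear-retained RNAs, which rise where nuclear RNA makes up more of a library, had a median of -0.26, all below 0 and 0 at an unadjusted p under 0.05.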

How the data were processed

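Polyadenylated RNA of 20 tumors was sequenced in paired-end reads. TopHat2 2.0.12, run in MapRseq 2.0.0, placed the reads, cut to 100 bases, on mm10. The submitters' processing notes name featureCounts 1.4.4. The authors deposited raw counts per gene, 1 column per tumor and not pooled, with other columns for positions and a coding length. The strand setting and annotation release are not given in the sources used here, and reads of both parental strains were placed on a C57BL/6 genome.

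Yam1 and AY036118 were left out of all totals. The score is the mean z-score of log2(CPM + 1) over Adipoq, Plin1, Cidec and Fabp4. The score, its genes, the groups and the gene lists were chosen with earlier results of these data known. Groups of 6 were compared with edgeR 4.0.16 in R 4.3.3 (filterByExpr, TMM with factors of 0.946 to 1.07, quasi-likelihood test, Benjamini-Hochberg over 18901 genes, threshold 0.05). The 4 score genes stayed in the totals and out of the tests. Printed CPM carry no TMM factor, and a standard error is the log2 fold change over the root of its F. CPM per kilobase used the listed coding length. Adgre1 was matched through an older symbol. Genes named outside the lists were up to 10 per direction by fold change among called genes whose mean log2 CPM was 1 or more, plus Erbb2. Other tests used Python 3.11.15 and scipy 1.17.1. With 3 counts as the limit behind a count of 0, detection limits were 0.0513 to 0.0987 CPM, which cover counting error only.

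The labels give no batch. Of 200 genes simulated with a log2 change of 1.5 in groups of 6, 191 were recovered, with 9 false calls among 18679 genes tested. Alternatives were DESeq2 1.42.0, no TMM, no filter, other group sizes, the score as a number, Lo or Hi as a covariate, totals with the locus, scores without 1 gene and each tumor left out. The fit without 5 tumors high in muscle or skin genes and the correlations over the 8 tumors between the groups were chosen after seeing the data.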

Additional observations from a re-analysis of the deposited data

Results flagged for a closer look

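In 12 of 108 groups of 6 tumors (single genes or summed lists), 1 tumor lay farther from the others than Dixon's 95% limit for 6 values allows. For independent, normally distributed values, chance gives about 1 in 20, or 5.4 of 108. CPM need not be normal, some single genes are members of the summed lists, and the groups were sorted by a score. The 5.4 is therefore only a rough guide. Among poor tumors, Hi 8 was low in St6galnac5 (0.0863 CPM, next 0.222) and in the summed insulin and adrenergic genes (463.5 CPM, next 550.3), and high in Ces1d (0.151 CPM, next 0.0493). Hi 3 was low in Tusc5 (0.715 CPM, next 1.21) and high in the skin genes (383.9 CPM, next 28.3) and the fatty acid and triglyceride synthesis genes (3711 CPM, next 3150). Hi 2 was high in Sox14 (0.821 CPM, next 0.202).

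Among rich tumors, Hi 6, which held the most muscle RNA, was high in the summed brown and beige fat genes (73.0 CPM, next 59.0) and the other enzymes of fat tissue (455.1 CPM, next 397.2). Hi 11 was low in pericyte and smooth muscle genes (244.1 CPM, next 362.1) and high in milk protein genes (16184 CPM, next 11529). Lo 4 was high in interferon response genes (526.3 CPM, next 233.5).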

How the results depend on the processing

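All 16 called genes kept their direction in 26 of 26 alternatives. The score without Adipoq left the groups as they were, so it could not differ. The scores without Cidec and without Fabp4 gave the same groups and so repeat 1 fit. All of these are counted in the 26, so the tallies hold fewer distinct fits than 26. Pck1 and Cfd stayed called in all 26, Plin4 in 25, Tusc5, Sncg and St6galnac5 in 24, Hp in 23, Serpina3n and Retn in 21, RP24-116C1.6 in 20, RP24-116C1.5 and Car3 in 19, Sox14 in 14, Hmgcll1 in 11, Ces1d in 9 and Gm29084 in 8. The calls numbered 16, with 15 higher and 1 lower. DESeq2 gave 107, with 64 higher and 43 lower, including all 16, and left 401 genes without an adjusted p. Lower calls numbered 0 with 5 against 5 tumors, with 8 against 8 and with the score as a number over 20 tumors, and 2 with Lo or Hi as a covariate or without Plin1 in the score. Scores without Cidec or without Fabp4, which put Lo 11 in the poor group, gave 8 calls, 8 higher and 0 lower. Without the tumors high in muscle or skin genes (added after seeing the data) there were 10 calls, 7 higher and 3 lower. The cause of these shifts was not tested.

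Leaving out 1 tumor at a time gave 11 to 24 calls, 11 to 23 higher and 0 to 5 lower. The 24 calls came without Hi 8, and the single lower call was lost without Hi 3, Hi 6, Hi 9, Lo 6 or Hi 11 and became 5 without Hi 4 and 4 without Lo 2. The Erbb2 log2 fold change turned positive without Hi 4 (0.0157), without Lo 4 (0.0194) and without the tumors high in muscle or skin genes (0.00917), and over the 12 fits without 1 tumor it ran from -0.0736 to 0.0194. With 8 against 8 tumors, the difference in total count was -2.1698e+06 counts (exact permutation p = 0.595) and that in Lo tumors -1 (Fisher's exact p = 1).

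No paired analysis was possible because the rich and poor tumors share 1 label number (Lo 4 and Hi 4). Over the 9 same-numbered Lo and Hi pairs, deviations correlated with r of -0.352 to 0.28, over 0.1 in 3. Lo 6 and Hi 6 (r = 0.28) and Lo 9 and Hi 9 (r = 0.218) were all rich, and Lo 2 and Hi 2 (r = 0.0916) both poor. Such correlations cannot tell whether the number marks something that the tumors share. With the score as a number over 20 tumors, 17 genes passed without this number as a replicate block, and with it 2 passed, 2 higher and 0 lower, Pck1 and Cfd. Depth limits what can be said of Lep, Aqp7, Adrb3 and Ucp1, which were not tested.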
